A study of Mus musculus with 6 samples.

Results

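Double-strand break and Fanconi repair genes were followed in B16F10 cells, an established mouse melanoma line. The set was given as 35 gene symbols, and 34 of them have a row among the 15726 genes of the deposited table. H2afx, the histone variant phosphorylated at breaks, was not analysed here. The members were grouped by role into 14 genes of homologous recombination and end resection, 7 of end joining, 5 of the Fanconi pathway and 8 of checkpoint and break signalling. RNA sequencing covered 6 libraries: 3 of cells kept for 8 h in medium with rPPAA18C6@Dox (50 μg/mL), and 3 of cells kept as long in medium with PBS. The labels name the preparation by its code only, and the series title calls it a ROS-responsive nanoplatform built on a potassium ionophore. The design text states no other dose and no group given the carrier or a drug alone. No label says that replicates were separate cultures, so p-values reflect the variation among these 6 libraries, and this variation may be technical only.

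Cells mend broken DNA by routes that differ in their need for a template. End joining brings broken ends together through the Ku heterodimer, the kinase DNA-PKcs and a ligase complex, whereas homologous recombination resects the ends and copies an intact sister strand with the help of BRCA1 and BRCA2. The Fanconi pathway unhooks crosslinks between strands and passes the lesion on to recombination. ATM and ATR are the kinases that signal damage to the checkpoint kinases and to the chromatin around a break, and recombination and Fanconi genes are mostly transcribed as cells enter S phase.

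Most of these genes differed little between the groups. Of the 34 members 3 rose and 1 fell at an adjusted p under 0.05 (limma with Benjamini-Hochberg adjustment over all 10680 genes tested). The 3 rises were Brca1, which guides resected ends into recombination, Xrcc5, which encodes the larger Ku subunit, and Lig4, the ligase of end joining. The 1 fall was that of Mdc1, the scaffold that binds the phosphorylated histone at breaks. These 4 calls are 11.8% of the members, and 9.93% of all tested genes were called (4.66% higher and 5.26% lower), so the share of members called was near the background. The groups did not overlap in 3 members with rPPAA18C6@Dox on top and in 3 with PBS on top. Together these are 17.6% of the members, against 31.3% of all genes tested (12.6% with rPPAA18C6@Dox on top and 18.7% with PBS on top).

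All 34 members passed the filter, which asked for a mean of at least 1 FPKM in either group. FPKM is a read count divided by gene length and library depth, and every log2 fold change refers to log2(FPKM + 1). The libraries held between 36380462 and 37067116 reads, as recovered from the whole-number steps of the deposited values, and the members between 100 and 9019 reads per library. The columns of the PBS libraries matched their titles, and the other 3 columns were assigned to rPPAA18C6@Dox by elimination, so the sign of each difference rests on that reading. All 7 melanocyte markers were tested, and their means of 45.5 to 1855 FPKM in PBS fit the labelled line. Of the 7, 5 were called higher, where 4.66% of all tested genes were. The sum of all 7 was 7198 to 7228 FPKM in rPPAA18C6@Dox libraries and 6145 to 6233 FPKM in PBS libraries. Of 8 immune, 7 fibroblast and 8 endothelial and epithelial markers, 1, 2 and 2 reached the filter. Summed levels were 1.78 to 1.90 FPKM in rPPAA18C6@Dox libraries and 1.49 to 1.54 FPKM in PBS libraries for immune markers, and 3.70 to 4.07 FPKM with rPPAA18C6@Dox and 4.24 to 4.35 FPKM with PBS for fibroblast markers. They were 4.72 to 4.88 FPKM with rPPAA18C6@Dox and 2.90 to 3.23 FPKM with PBS for endothelial and epithelial markers, among them Vwf with means of 3.32 FPKM with rPPAA18C6@Dox and 1.497 FPKM with PBS. Of the immune, fibroblast, endothelial and epithelial markers, Cd68 and Vwf were called higher (limma adjusted p = 0.0311 and 5.91e-05), and none was called lower. The part of these marker levels in the results was not tested.

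The sequences around the starts of the 4 called genes are shown, with those of the binding partners Bard1 and Xrcc6. Brca1 and Xrcc5 were called and these partners were not. Xrcc4, the partner of Lig4, was not called either, and its sequence is not shown. The sequences shown are RefSeq promoters on build GRCm38.p6, 250 bases before to 50 after the start, 5′ to 3′ on the strand of the gene. Capitals mark matches, on either strand, to 5 motifs: the E2F-type letters TTTCCCGC, the CCAAT box CCAAT, the CRE half-site TGACGT, the ETS letters CTTCCGG and the E-box CACGTG. No 2 of the marked matches overlap.
Brca1, chr11:101551906-101552205, minus strand: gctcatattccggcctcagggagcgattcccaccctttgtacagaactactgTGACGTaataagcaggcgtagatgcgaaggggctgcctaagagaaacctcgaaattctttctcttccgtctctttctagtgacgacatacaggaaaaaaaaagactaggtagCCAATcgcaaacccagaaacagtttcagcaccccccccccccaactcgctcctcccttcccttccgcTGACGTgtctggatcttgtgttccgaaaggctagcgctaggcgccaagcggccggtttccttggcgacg
Bard1, chr1:71102923-71103222, minus strand: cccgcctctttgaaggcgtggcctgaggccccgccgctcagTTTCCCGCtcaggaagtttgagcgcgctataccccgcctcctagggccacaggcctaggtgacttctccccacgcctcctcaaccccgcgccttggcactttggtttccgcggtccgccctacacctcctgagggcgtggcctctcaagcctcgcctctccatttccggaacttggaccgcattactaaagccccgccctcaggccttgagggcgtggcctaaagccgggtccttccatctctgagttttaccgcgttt
Xrcc5, chr1:72307171-72307470, plus strand: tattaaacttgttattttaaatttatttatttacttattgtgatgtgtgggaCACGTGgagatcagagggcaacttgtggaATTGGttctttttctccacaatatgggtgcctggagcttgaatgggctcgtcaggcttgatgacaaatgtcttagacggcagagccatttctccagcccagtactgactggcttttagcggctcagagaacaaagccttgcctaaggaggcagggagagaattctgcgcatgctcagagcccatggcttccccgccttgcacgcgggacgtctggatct
Xrcc6, chr15:82016119-82016418, plus strand: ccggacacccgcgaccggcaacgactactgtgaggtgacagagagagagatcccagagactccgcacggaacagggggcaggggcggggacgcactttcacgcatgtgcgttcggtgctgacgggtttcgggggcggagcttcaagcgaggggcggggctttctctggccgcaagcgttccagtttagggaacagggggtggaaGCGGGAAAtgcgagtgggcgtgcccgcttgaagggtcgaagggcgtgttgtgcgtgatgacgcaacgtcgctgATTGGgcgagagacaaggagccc
Lig4 upstream start, chr8:9977631-9977930, minus strand: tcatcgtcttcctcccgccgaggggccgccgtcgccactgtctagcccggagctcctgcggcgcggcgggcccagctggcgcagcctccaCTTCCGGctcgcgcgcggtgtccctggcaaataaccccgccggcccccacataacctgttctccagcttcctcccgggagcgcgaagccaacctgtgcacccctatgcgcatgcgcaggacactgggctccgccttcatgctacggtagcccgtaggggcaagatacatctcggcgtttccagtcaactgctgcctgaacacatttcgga
Lig4 downstream start, chr8:9976262-9976561, minus strand: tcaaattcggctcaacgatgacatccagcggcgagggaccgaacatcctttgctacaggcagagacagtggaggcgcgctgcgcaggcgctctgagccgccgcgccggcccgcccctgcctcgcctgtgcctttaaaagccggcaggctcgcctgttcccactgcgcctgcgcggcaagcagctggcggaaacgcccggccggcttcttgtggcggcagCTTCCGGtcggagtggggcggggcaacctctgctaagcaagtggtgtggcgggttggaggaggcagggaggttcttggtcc
Mdc1, chr17:35841248-35841547, plus strand: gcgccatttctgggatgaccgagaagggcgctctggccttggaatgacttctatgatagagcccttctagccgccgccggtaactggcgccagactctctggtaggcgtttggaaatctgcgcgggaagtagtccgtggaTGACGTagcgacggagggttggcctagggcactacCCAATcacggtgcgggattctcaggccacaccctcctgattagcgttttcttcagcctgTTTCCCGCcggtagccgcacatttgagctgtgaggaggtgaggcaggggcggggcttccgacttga

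The Brca1 window holds the CRE half-site letters 2 times and 1 CCAAT box, and the Bard1 window holds neither but has the E2F-type letters 1 time. The Xrcc5 window holds 1 E-box and 1 CCAAT box, and the Xrcc6 window has the E2F-type letters and 1 CCAAT box. Of the 4 called genes Mdc1 alone carries the E2F-type letters. Its window also holds 1 CRE half-site and 1 CCAAT box, motifs that the Brca1 window holds too. Entries were found for 27 of the 34 members, and none was found for Rad51d, Xrcc2, Prkdc, Rad50, Nbn, Rbbp8 and Fancd2. Of those 27 members 6 (22.2%) carry the E2F-type letters in a promoter entry, against 1.07% of all 32851 promoters in the table. They are Bard1, Brca2, Chek2, Mdc1, Rad51c and Xrcc6, and Mdc1 alone of them was called. The estimates of Rad51c (0.02) and Xrcc6 (0.04) were above 0, and those of Bard1, Brca2 and Chek2 were below 0. The CRE half-site letters occur in 22.2% of the members and 7.51% of all promoters, the CCAAT box in 59.3% and 37.4%, and the ETS letters in 29.6% and 8.86%. Both Lig4 starts carry the ETS letters. So do entries of Atm, Atr, Dclre1c, Palb2, Rad51c, Rnf168 and Xrcc4, none of them called. The E-box (7.15% of all promoters) occurs in 1 member, Xrcc5. A match is a run of letters and not a shown binding site, and members with 2 entries count when either entry matches. The shares of all promoters were counted per entry, and these entries were not limited to genes tested here. Shares of members and of all promoters thus differ in unit and in gene set.

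**Figure D1:**
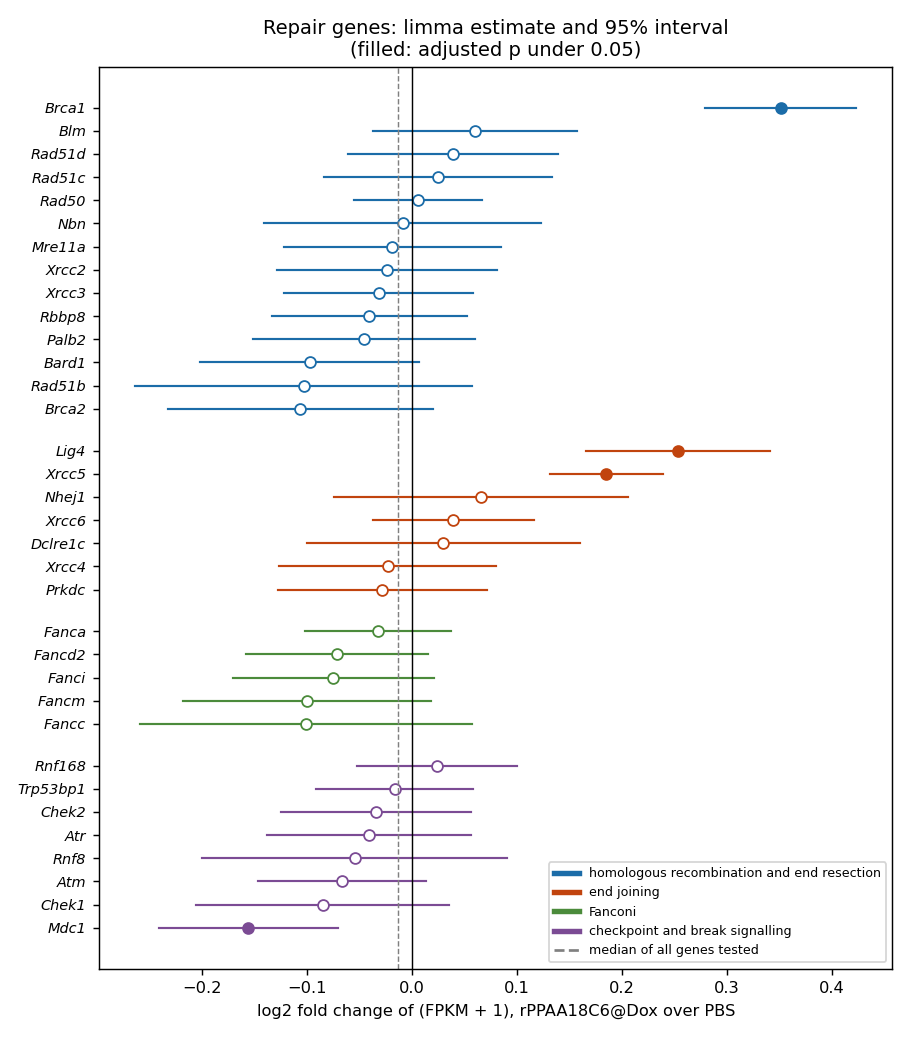
Each point is the limma log2 fold change of a gene (rPPAA18C6@Dox over PBS, log2(FPKM + 1) scale, horizontal axis) with its 95% interval, grouped by role down the vertical axis; filled points passed an adjusted p of 0.05 and the dashed line is the median of all genes tested. Brca1 (0.35), Lig4 (0.25) and Xrcc5 (0.19) stand to the right of 0, Mdc1 (-0.16) to the left, and all other estimates lie within 0.11 of 0.

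Of the 14 homologous recombination and resection members Brca1 alone was called, and the median estimate was -0.02. Brca1 was at 30.04, 28.7 and 28.1 FPKM in the rPPAA18C6@Dox libraries, against 22.6, 22.7 and 22.02 FPKM in the PBS libraries. The lowest rPPAA18C6@Dox library was above the highest PBS library. Its mean was 28.9 ± 0.994 FPKM with rPPAA18C6@Dox and 22.5 ± 0.389 FPKM with PBS (SD, n = 3 each), 28.8% higher, with a log2 fold change of 0.35 (SE 0.0323, 95% interval 0.28 to 0.42) and a limma adjusted p of 0.000131. Of the 10680 tested genes 81 had a larger estimated rise, and the 5653 to 7759 reads per library place Brca1 among the best covered members. No exon of another annotated gene overlaps it in GENCODE vM21.

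Bard1 encodes the RING-domain partner without which BRCA1 is unstable. It was at 6.51, 5.78 and 6.32 FPKM with rPPAA18C6@Dox, against 6.77, 6.82 and 6.51 FPKM with PBS. All rPPAA18C6@Dox libraries were below all PBS libraries, but rPPAA18C6@Dox replicate 1 (6.505 FPKM, 1350 reads) and PBS replicate 3 (6.511 FPKM, 1343 reads) nearly met. The order of that pair is reversed in reads before scaling for depth. Bard1 was not called (log2 fold change -0.10, 95% interval -0.20 to 0.01, limma adjusted p = 0.224). Palb2, which bridges BRCA1 and BRCA2, averaged 3.88 ± 0.145 FPKM with rPPAA18C6@Dox and 4.04 ± 0.164 FPKM with PBS (n = 3 each). Brca2, a core gene of homologous recombination, was at 7.41, 7.39 and 6.49 FPKM with rPPAA18C6@Dox, against 7.30, 7.63 and 8.21 FPKM with PBS. Both sets overlapped, and Brca2 had the most negative estimate of the group (-0.11, 95% interval -0.23 to 0.02).

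None of Rad51b, Rad51c, Rad51d, Xrcc2 and Xrcc3, a family of related genes that act in recombination, was called. Rad51b had the widest interval of all members (-0.26 to 0.06), with 253 to 344 reads per library and a single high PBS library, replicate 2, at 1.71 FPKM, where the other 5 libraries lay between 1.26 and 1.46 FPKM. Rad51c, Rad51d, Xrcc2 and Xrcc3 had estimates between -0.03 and 0.04. Their means ran from 4.61 FPKM for Rad51d to 8.64 FPKM for Xrcc2 with rPPAA18C6@Dox, and from 4.46 to 8.79 FPKM for the same genes with PBS.

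None of the 3 genes of the MRE11 complex, which senses and trims broken ends, was called. Rad50 was at 22.7, 22.2 and 22.6 FPKM with rPPAA18C6@Dox, against 22.2, 22.4 and 22.6 FPKM with PBS. Its log2 fold change was 0.01 with a 95% interval of -0.06 to 0.07. Mre11a, the nuclease, was at 4.48, 4.51 and 4.17 FPKM with rPPAA18C6@Dox, against 4.601, 4.33 and 4.44 FPKM with PBS. Nbn, the subunit that recruits ATM, averaged 4.96 ± 0.488 FPKM with rPPAA18C6@Dox and 4.98 ± 0.127 FPKM with PBS (n = 3 each), and its estimate of -0.01 turned to a slightly positive one under quantile normalization and in 2 fits without 1 library. Rbbp8 (CtIP), the resection factor, had an estimate of -0.04. Blm, the helicase mutated in Bloom syndrome, had one of 0.06, and its highest value was that of rPPAA18C6@Dox replicate 1 (14.96 FPKM), where the other 5 libraries lay between 13.2 and 13.6 FPKM.

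End joining had 2 of its 7 members higher and none lower, where 4.66% of all tested genes were called higher. Its median estimate was 0.04, against -0.01 over all genes tested. Over 13 other end joining genes, none of them called, the median was -0.02. Xrcc5 (Ku80) was at 61.1, 62.7 and 62.5 FPKM with rPPAA18C6@Dox, against 54.8, 54.1 and 54.5 FPKM with PBS. The groups did not overlap, and the gap between them was larger than the range within either. It was the most abundant member per kilobase, at 62.1 ± 0.892 FPKM with rPPAA18C6@Dox and 54.5 ± 0.385 FPKM with PBS (n = 3 each), 14.0% higher (log2 fold change 0.19, SE 0.0240, 95% interval 0.13 to 0.24, limma adjusted p = 0.00148). Its partner Xrcc6 (Ku70) was at 23.8, 22.7 and 23.5 FPKM with rPPAA18C6@Dox, against 23.4, 21.7 and 22.9 FPKM with PBS. These values overlapped and Xrcc6 was not called (log2 fold change 0.04, 95% interval -0.04 to 0.12, limma adjusted p = 0.507). Exons of Desi1 on the other strand share 7.69% of the exon bases of Xrcc6, and reads of the 2 genes may be mixed.

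Lig4 was at 8.88, 9.05 and 8.49 FPKM with rPPAA18C6@Dox, against 7.12, 7.44 and 7.11 FPKM with PBS. No rPPAA18C6@Dox library reached down to a PBS library. The mean was 8.81 ± 0.290 FPKM with rPPAA18C6@Dox and 7.23 ± 0.189 FPKM with PBS (n = 3 each), 21.9% higher (log2 fold change 0.25, SE 0.0393, 95% interval 0.17 to 0.34, limma adjusted p = 0.00392), from 1106 to 1422 reads per library. Xrcc4, the scaffold that holds the ligase, was at 5.86, 5.83 and 5.76 FPKM with rPPAA18C6@Dox, against 6.08, 5.53 and 6.18 FPKM with PBS. The rPPAA18C6@Dox values lay inside the PBS range (log2 fold change -0.02, 95% interval -0.13 to 0.08). Prkdc, which encodes DNA-PKcs, Nhej1 (XLF) and the end-trimming nuclease gene Dclre1c (Artemis) had estimates of -0.03, 0.07 and 0.03, none of them called.

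**Figure D2:**
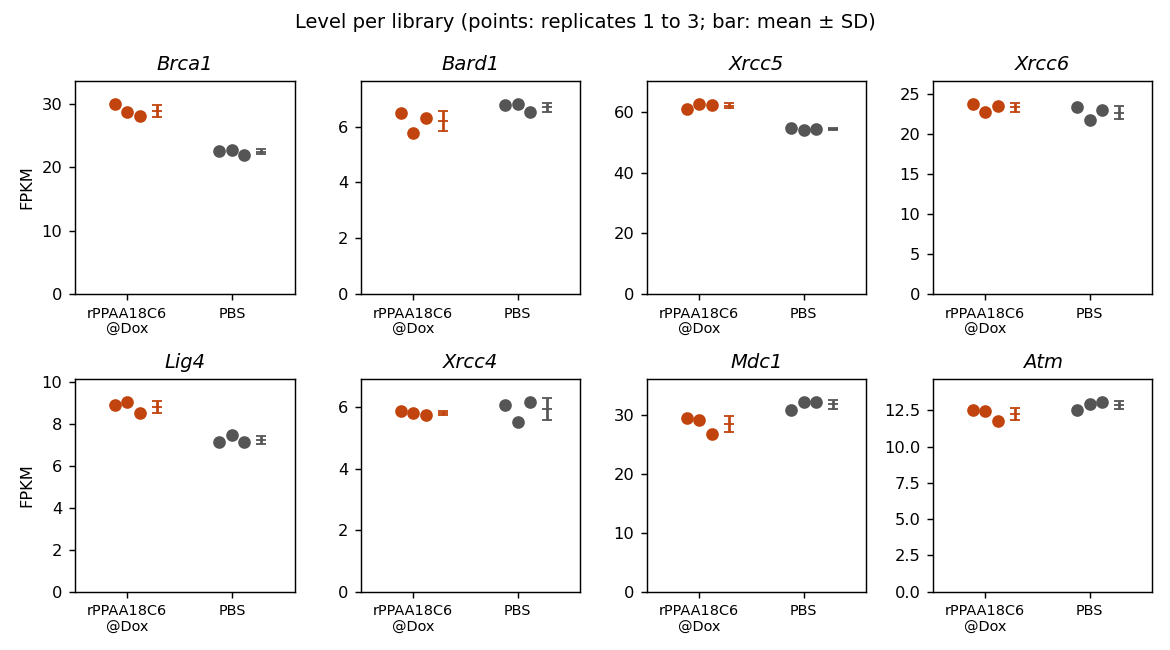
FPKM (vertical axis, from 0) in each library of the 4 called genes and of 4 that were not, with rPPAA18C6@Dox left of PBS; points are replicates 1 to 3 and bars the mean ± SD. Brca1, Xrcc5 and Lig4 are separated upwards and Mdc1 downwards (28.5 FPKM on average with rPPAA18C6@Dox and 31.8 FPKM with PBS), Bard1 and Atm are separated downwards by narrow gaps without being called, and Xrcc6 and Xrcc4 overlap.

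None of the 5 Fanconi members was called, and all 5 estimates were below 0, with a median of -0.07. Their summed level was 58.4 to 62.1 FPKM in rPPAA18C6@Dox libraries and 61.9 to 63.8 FPKM in PBS libraries. Fancd2, the clamp subunit that is ubiquitinated at crosslinks, was at 21.7, 20.3 and 20.6 FPKM with rPPAA18C6@Dox, against 21.003, 22.9 and 22.02 FPKM with PBS. Its clamp partner Fanci was at 14.2, 12.7 and 13.6 FPKM with rPPAA18C6@Dox, against 14.5, 14.4 and 13.8 FPKM with PBS. Groups overlapped in both genes, with estimates of -0.07 and limma adjusted p-values of 0.285 for Fancd2 and 0.306 for Fanci. Exons of Polg on the other strand share 15.95% of the exon bases of Fanci. Fancm, the translocase that anchors the core complex, had 3 PBS libraries between 5.24 and 5.27 FPKM and rPPAA18C6@Dox libraries between 4.45 and 5.25 FPKM (log2 fold change -0.10, limma adjusted p = 0.269). The core complex genes Fanca and Fancc had estimates of -0.03 and -0.10, and Fancc was the scarcest member per kilobase at 1.06 ± 0.163 FPKM with rPPAA18C6@Dox and 1.21 ± 0.0239 FPKM with PBS (n = 3 each).

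Among the checkpoint and signalling members only Mdc1 was called. It was at 29.5, 29.1 and 26.9 FPKM with rPPAA18C6@Dox, against 30.9, 32.3 and 32.3 FPKM with PBS. The groups did not overlap, and rPPAA18C6@Dox replicate 3 was the lowest library. The mean was 28.5 ± 1.43 FPKM with rPPAA18C6@Dox and 31.8 ± 0.782 FPKM with PBS (n = 3 each), a log2 fold change of -0.16 (SE 0.0382, 95% interval -0.24 to -0.07, limma adjusted p = 0.0314). The call did not hold with rPPAA18C6@Dox replicate 3 left out (adjusted p = 0.0734), without PBS replicate 2 (0.0980) or 3 (0.0965), with no filter on low values (0.0838), with quantile normalization (0.0519), without the mean-variance trend (0.0692) and with the replicate block (0.0530).

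The kinases that start the response were not called. Atm was at 12.5, 12.5 and 11.8 FPKM with rPPAA18C6@Dox, against 12.6, 12.9 and 13.1 FPKM with PBS, with no overlap but a gap of less than 0.1 FPKM (log2 fold change -0.07, 95% interval -0.15 to 0.01, limma adjusted p = 0.279). Atr was at 5.12, 4.77 and 4.89 FPKM with rPPAA18C6@Dox, against 5.09, 4.95 and 5.25 FPKM with PBS. Its values overlapped, with an estimate of -0.04.

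Neither effector kinase gene of the checkpoint was called. Chek1, activated by ATR, was at 8.54, 8.68 and 9.58 FPKM with rPPAA18C6@Dox, against 10.3, 9.12 and 9.22 FPKM with PBS (log2 fold change -0.08, 95% interval -0.21 to 0.04). Chek2, activated by ATM, was at 10.4, 10.2 and 10.95 FPKM with rPPAA18C6@Dox, against 11.3, 10.5 and 10.6 FPKM with PBS (log2 fold change -0.03, 95% interval -0.12 to 0.06). In both genes PBS replicate 1 was the highest of the 6 libraries and rPPAA18C6@Dox replicate 3 the second highest. The ubiquitin ligase genes Rnf8 and Rnf168, which mark chromatin for repair, had estimates of -0.05 and 0.02, and Trp53bp1, whose product shields ends from resection, had one of -0.02. Rnf8 rested on 100 to 125 reads per library and shares exon bases with Gm28043 on the same strand, and 15.0% of the exon bases of Trp53bp1 are shared with Tubgcp4 on the other strand.

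Of the 30 members not called, 8 had an estimate above 0 and 22 below. Their adjusted p-values ran from 0.224 to 0.944, and their 95% intervals reached at most -0.26 (Rad51b) and 0.21 (Nhej1) on the log2(FPKM + 1) scale. Larger changes on this scale, in either direction, lie outside every one of these intervals. The added 1 shrinks changes in scarce members: the Rad51b estimate was -0.10, and -0.16 with 0.1 added in place of 1. Over all 34 members the median estimate was -0.03, and over all genes tested it was -0.01. Estimates below 0 made up 67.6% of the members and 56.5% of all genes tested.

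**Figure D3:**
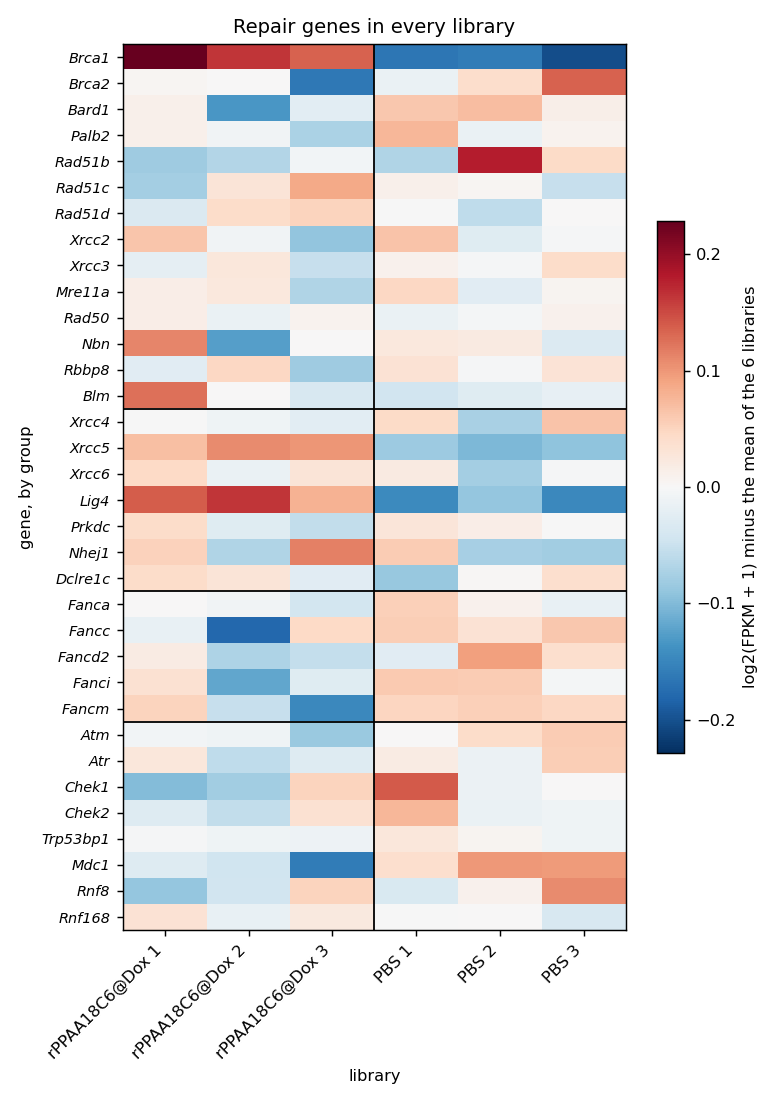
Colour gives log2(FPKM + 1) of each gene in each library minus the gene's mean over the 6 libraries, with rPPAA18C6@Dox libraries left of PBS libraries and black lines between the role groups. Brca1, Xrcc5 and Lig4 are red in all 3 rPPAA18C6@Dox libraries and blue in all 3 PBS libraries, and most other rows mix colours within a group.

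The authors' deposited table gives a p-value for each gene from a test its header does not name. A p under 0.05 was listed for 4 members in the authors' deposited table, the same 4 genes: Brca1 (1.17e-30), Xrcc5 (3.60e-11), Lig4 (2.54e-07) and Mdc1 (0.000105). The next smallest p in the authors' deposited table was 0.0567, for Brca2, and 17.5% of all its genes had a p under 0.05.

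Several members encode proteins that bind each other in fixed complexes, so the ratio of the partners' FPKM was taken in each library for 6 pairs. The ratio of Brca1 to Bard1 was 4.62, 4.96 and 4.45 with rPPAA18C6@Dox, against 3.34, 3.34 and 3.38 with PBS. This was the largest shift of the 6, 39.3% on the mean log2 ratio, and the 3 PBS ratios lay closer together than the 3 rPPAA18C6@Dox ratios. The ratio of Xrcc5 to Xrcc6 was 2.57, 2.76 and 2.66 with rPPAA18C6@Dox, against 2.35, 2.49 and 2.38 with PBS, again without overlap and 10.7% higher. The ratio of Xrcc4 to Lig4 was 0.660, 0.644 and 0.678 with rPPAA18C6@Dox, against 0.854, 0.743 and 0.869 with PBS, lower in every rPPAA18C6@Dox library.

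Each of these 3 pairs holds a called gene and a partner that was not called, so the ratios restate those calls in part. In each of the 3 the two-sided exact permutation p was 0.10, the smallest that 3 against 3 libraries allow, and 0.20 adjusted over the 6 pairs, so none passed 0.05. Groups overlapped in the other 3 pairs. Fancd2 to Fanci averaged 1.55 ± 0.0476 with rPPAA18C6@Dox and 1.55 ± 0.0809 with PBS (n = 3 each, exact permutation p = 0.80). Mre11a to Rad50 averaged 0.195 ± 0.00957 with rPPAA18C6@Dox and 0.199 ± 0.00718 with PBS (n = 3 each, exact permutation p = 0.70). Brca2 to Palb2 averaged 1.83 ± 0.0714 with rPPAA18C6@Dox and 1.91 ± 0.169 with PBS (n = 3 each, exact permutation p = 0.50).

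**Figure D4:**
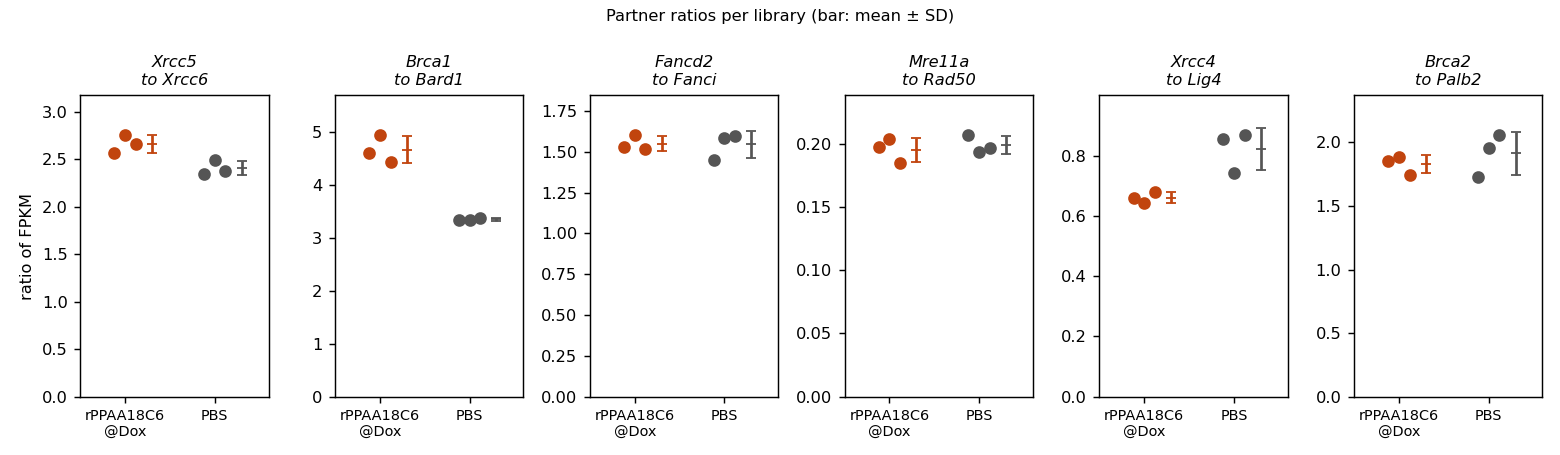
Ratio of FPKM (vertical axis, from 0) in each library for 6 pairs of binding partners, with rPPAA18C6@Dox left of PBS; points are replicates 1 to 3 and bars the mean ± SD. The ratios of Xrcc5 to Xrcc6 and of Brca1 to Bard1 are higher and that of Xrcc4 to Lig4 lower in all 3 rPPAA18C6@Dox libraries, and the other pairs overlap.

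Many repair genes start head to head with a neighbour. In GENCODE vM21, 13 members have a start within 1000 bases of that of a gene on the other strand with a row in the table, and 11 of these neighbours were tested. Nbr1, an autophagy receptor gene whose start lies 194 bases from that of Brca1, was at 37.3, 37.6 and 37.98 FPKM with rPPAA18C6@Dox, against 33.8, 35.3 and 36.6 FPKM with PBS. Its libraries did not overlap, but its log2 fold change of 0.09 (SE 0.0322, limma adjusted p = 0.0997) was not called, except with voom (adjusted p = 0.0268), and lay below the interval of Brca1. Abhd13, which starts 21 bases from Lig4, rose with it: 14.05, 14.01 and 13.7 FPKM with rPPAA18C6@Dox, against 13.01, 12.6 and 12.2 FPKM with PBS (log2 fold change 0.13, SE 0.0344, limma adjusted p = 0.0375). The groups did not overlap in Abhd13, but its call held without PBS replicate 1 and was lost without any other single library (adjusted p up to 0.125). The Abhd13 call was also lost with the replicate block (0.0553), without the mean-variance trend (0.0549) and when low values were not filtered (0.0646). Mcm4, a replicative helicase gene 466 bases from Prkdc, fell to 43.9 ± 0.815 FPKM with rPPAA18C6@Dox, against 48.6 ± 1.31 FPKM with PBS (n = 3 each, log2 fold change -0.14, limma adjusted p = 0.0133), and its call was lost without PBS replicate 2 (adjusted p = 0.0563). Prkdc itself was at 4.26 ± 0.185 FPKM with rPPAA18C6@Dox and 4.36 ± 0.0539 FPKM with PBS. The other 8 tested neighbours, among them Npat beside Atm, Emc3 beside Fancd2 and Hscb beside Chek2, were not called. Hscb was at 11.6, 11.2 and 12.1 FPKM with rPPAA18C6@Dox, against 10.9, 10.1 and 10.9 FPKM with PBS. The groups did not overlap in Hscb (log2 fold change 0.12, SE 0.0421, limma adjusted p = 0.113), and they overlapped in the rest of these neighbours.

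A list of 79 other genes of the same pathways was counted in the same fit. Of its 76 tested genes none rose and 6 fell, 7.89%, with a median estimate of -0.05, and 5.26% of all tested genes fell. At an unadjusted p under 0.05, 1 was higher and 20 were lower (1.32% and 26.3%), against 10.6% higher and 15.7% lower over all genes tested. The falls were spread over recombination (3 genes, Rpa2 and Rmi2 among them), the Fanconi pathway (Ube2t) and the checkpoint (Topbp1 and Telo2), and none of 13 other end joining genes was called. Rpa2, a subunit of the protein that coats single-stranded DNA, averaged 33.8 ± 0.485 FPKM with rPPAA18C6@Dox and 38.3 ± 1.595 FPKM with PBS (n = 3 each, log2 fold change -0.17, limma adjusted p = 0.0101). Telo2, which stabilises the ATM and ATR family of kinases, averaged 19.8 ± 0.289 FPKM with rPPAA18C6@Dox and 22.07 ± 0.298 FPKM with PBS (n = 3 each, log2 fold change -0.15, limma adjusted p = 0.0120).

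Topbp1, an activator of ATR, had a log2 fold change of -0.11 (limma). Ube2t, the ubiquitin-conjugating enzyme of the Fanconi clamp, had one of -0.17, and Rmi2, of the BLM complex, one of -0.25. Rmi2 was scarce, with means of 1.46 FPKM with rPPAA18C6@Dox and 1.92 FPKM with PBS, and its estimate reached -0.40 among the alternative fits. The calls of Topbp1, Ube2t and Rmi2 were lost in most fits that left out 1 library. The estimates kept their sign in those fits (-0.29 to -0.22 for Rmi2, -0.11 to -0.10 for Topbp1 and -0.21 to -0.14 for Ube2t). In the fits that left out 1 library, that of Rmi2 held only without PBS replicate 3 (adjusted p in the other fits up to 0.105) and that of Topbp1 only without rPPAA18C6@Dox replicate 1 (up to 0.0832), while that of Ube2t held only without replicate 3 of either group (up to 0.105 in the other fits). With all libraries kept, the calls were also lost with the replicate block (adjusted p = 0.0651 for Rmi2, 0.0522 for Topbp1 and 0.0653 for Ube2t), those of Rmi2 (0.0658) and Ube2t (0.0853) with no filter on low values, and those of Topbp1 (0.0675) and Ube2t (0.0624) without the mean-variance trend. That of Rmi2 was lost with quantile normalization (0.0532) and that of Ube2t with voom (0.0553). Without rPPAA18C6@Dox replicate 1 the count of falls was 3, without rPPAA18C6@Dox replicate 2 or PBS replicate 1 it was 2, and without PBS replicate 2 it was 3.

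Cell cycle genes were counted in the same fit, where 5.26% of all tested genes were called lower and the median estimate of all was -0.01. Of 14 S phase and replication genes none rose and 9 fell, with a median estimate of -0.13, and their summed level was 1090 to 1099 FPKM in rPPAA18C6@Dox libraries and 1165 to 1214 FPKM in PBS libraries. Of 10 genes of G2 and mitosis none rose and 5 fell, with a median estimate of -0.12 and sums of 698 to 704 FPKM with rPPAA18C6@Dox and 747 to 763 FPKM with PBS. Their part in the values of the repair genes was not tested.

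**Figure D5:**
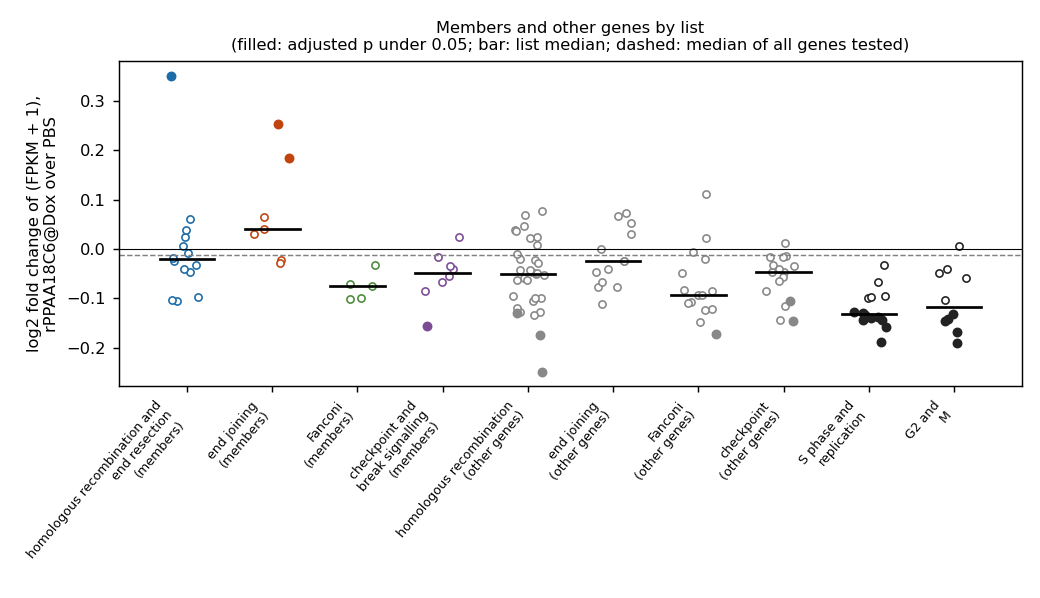
Log2 fold change of each gene (vertical axis, rPPAA18C6@Dox over PBS, log2(FPKM + 1) scale) for the 4 role groups, 4 lists of other pathway genes and 2 cell cycle lists; filled points passed an adjusted p of 0.05, bars are list medians and the dashed line is the median of all genes tested. The medians run from 0.04 for the end joining members to -0.13 for S phase genes.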

How the data were processed

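The deposited table holds 1 value per gene and library and a p-value per gene, and its header names no unit. The deposited values were read as FPKM from the values themselves. Per the submitters' processing notes the build was mm9; the aligner, counter, strand setting and any filter are not given in the sources used. Overlaps and neighbours were taken from GENCODE vM21 and promoters from RefSeq on build GRCm38.p6. The gene models behind the deposited values may differ from these. The p-value column in the deposited table comes from a comparison by the authors. For all 15726 genes 1 factor per gene made whole reads of the 6 values (tolerance 0.01), which gave the depth. The members and lists were chosen with earlier results of these data known.

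Differences were tested with limma 3.58.1 in R 4.3.3 (mean-variance trend, two-sided, unpaired) on log2(FPKM + 1) for genes with a mean of at least 1 FPKM in either group, and p-values were Benjamini-Hochberg adjusted and called under 0.05. The code was tested on simulated data. Partner ratios were compared with an exact permutation test. All members in the table, and other pathway genes past the threshold, were named, except 1 pathway gene that is not reported here. Alternatives were a pseudocount of 0.1, no filter, a mean of at least 5 FPKM, quantile normalization, no trend, limma's voom on recovered reads, the replicate block and leaving out each library.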

Additional observations from a re-analysis of the deposited data

How the results depend on the processing

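Brca1, Xrcc5 and Lig4 stayed higher past the threshold under every alternative run, with adjusted p-values up to 0.00240, 0.0116 and 0.0195, and Mdc1 is the only member whose call was lost. The count of lower members was 0 with no filter, quantile normalization, no trend and the replicate block, and 0 to 1 with 1 library left out. Over all genes, 1060 were called, against 681 with no filter and 1636 with voom, and 600 to 749 with 1 library left out (314 to 371 higher and 285 to 381 lower, against 498 and 562); with no filter 335 and with voom 933 were lower. Of the other pathway genes 6 were called, 3 with no filter or no trend, 11 with voom, 2 with the replicate block and 2 to 4 with 1 library left out; the causes were not tested. No label states that the replicate numbers pair the libraries, and no pairing was seen. Deviations of same-numbered libraries correlated at -0.00238, 0.0549 and -0.0210, and those of differently numbered ones at -0.0625 to 0.0603. These values cannot tell whether the libraries were paired when made. The block moved the count of all called genes to 825. Signs turned only for estimates near 0: Nbn under quantile normalization (0.00261, adjusted p = 0.984). With 1 library left out, log2 fold changes ranged from -0.0122 to 0.0702 for Rad51c, -0.0613 to 0.0156 for Xrcc2, -0.0658 to 0.00332 for Xrcc4, -0.00547 to 0.0564 for Dclre1c, -0.0357 to 0.0109 for Mre11a, -0.000505 to 0.0151 for Rad50 and -0.0668 to 0.0516 for Nbn. The shift in log2 ratio ranged from -0.0381 to 0.0301 for Fancd2 to Fanci and -0.0595 to 0.0103 for Mre11a to Rad50, and the other 4 pairs kept their direction in every alternative run, the replicate block included (shift of 0.48 for Brca1 to Bard1). The number of libraries, 3 per group, and the depth, down to 100 reads in the thinnest member, limit the precision, and the printed intervals give its size for each gene.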
